A study of Mus musculus with 12 samples.

Results

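Mediator is the large protein complex that carries signals from transcription factors bound to DNA to RNA polymerase II at the promoter. Its head and middle modules contact the polymerase, its tail module contacts many transcription activators, and Med14 is the scaffold that joins these modules. A separable kinase module, built of the kinases Cdk8 or Cdk19, their partner cyclin C (Ccnc), and Med12 or Med12l with Med13 or Med13l, binds the core reversibly and changes its contact with the polymerase. The genes described here are the 33 Mediator subunit genes of the mouse, found by symbol among the 20409 genes of the deposited gene tables. All 33 were present: 7 head genes (Med6, Med8, Med11, Med17, Med18, Med20 and Med22), 9 middle genes (Med1, Med4, Med7, Med9, Med10, Med19, Med21, Med26 and Med31), 9 tail genes (Med15, Med16, Med23, Med24, Med25, Med27, Med28, Med29 and Med30), the scaffold gene Med14, and the 7 genes of the kinase module.

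The screens used ORFtag, a method that tags genes where they stand. A retrovirus inserts a promoter followed by a tag and a splice donor, and a transcript that runs into the next gene is spliced so that the protein begins with the tag. The cells were AN3-12 mouse embryonic stem cells, a line that was haploid at the start and was used here as diploid cells. Each screen ran in a reporter line grown from a single clone, so the reporter site is the same in all cells of a screen. The activator reporter held 7 TetO sites before the MYLPF promoter driving Puro-IRES-GFP at a stably expressed site on chromosome 15. The repressor reporter held 7 TetO sites next to the PGK promoter driving Puro-IRES-GFP, with an EF1-driven BFP gene beside it, also on chromosome 15. The third screen looked for post-transcriptional gene regulators (PTGR), and its reporter held 10 boxB sites in a Puro-IRES-GFP transcript and was integrated at random. The tag was TetR in the activator and repressor screens, which brings the fusion to the reporter's DNA, and the λN peptide in the PTGR screen, which brings it to the reporter's RNA. Cells of high GFP were sorted from the activator line and cells of low GFP from the repressor line. PTGR sorted cells had lost GFP in repeated sorts and regained it once Cre had removed the boxB sites. Each screen had 2 sorted and 2 unsorted libraries, all of them carrying the cassette, which makes 12 libraries in 6 groups. The libraries list where the cassette sat in genomic DNA and hold no RNA, so the cell type could not be checked against marker genes. The study calls the replicates biological, and the labels give only their number.

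Each unique position of the cassette counted as 1 insertion, however many cells or reads carried it, and was assigned to the closest exon downstream, first exons excepted, at most 200 kb away. Sorted libraries held 14705 to 60980 such insertions and unsorted libraries 54088 to 233799. Levels are given as insertions per 10000 of a library. The 6 unsorted libraries together, with 1022126 insertions, are the background. A gene is a hit when its log2 odds ratio is 1 or more and the one-sided Fisher's exact test of sorted against background insertions gives an adjusted p below 0.001. The test was run on genes with at least 3 sorted insertions, and the standard error (SE) of a log2 odds ratio covers counting error only. The quasi-likelihood test of edgeR, which uses the spread between 2 sorted and 2 unsorted libraries of the same screen, is given beside it, with calls at an adjusted p below 0.05 and at least a 2-fold change.

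All 33 genes took insertions in the background, 2408 in all, with a median of 35 per gene against 15 over all 20409 genes. The chance of seeing a gene tagged was very uneven. Med13l, a kinase module gene with 670 background insertions, took the most, followed by Med14 with 278 and Cdk19 with 154. At the other end, 7 members had fewer than 10, among them the head genes Med8 and Med11 with 2 each. Longer genes tended to hold more: the Spearman correlation of gene length and background insertions was 0.65 over the 33 genes, which share the same libraries.

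Each insertion was assigned to the closest annotated splice acceptor downstream, to which the tag is taken to be joined. The libraries hold no RNA, so the acceptor used was not observed for any member, and the reading frame was not examined. The following windows show these acceptors for the 5 members called in the activator screen, with a further exon each of Med15 and Med12, and for Med13l, the most often tagged member. They are read from the mouse genome, build GRCm38, on the strand of the gene. Each runs over the last 20 bases of the intron, in lower case, and the first 10 bases of the exon, in capitals. A fusion to that exon would begin at the capitals.
Med26 exon 2, chr8:72497588-72497617, minus strand: acatggttctttttcttcagATCCGGAACA
Med25 exon 2, chr7:44892135-44892164, minus strand: cctttcctccgtctttgcagGTACTTCAAC
Med15 exon 2, chr16:17706474-17706503, minus strand: tactttaaattgtgtttcagGGTGTTGTGT
Med15 exon 3, chr16:17698183-17698212, minus strand: ctatctcctattgtgcttagTAGTTAGAAG
Med14 exon 2, chrX:12756446-12756475, minus strand: ccacttttttttttccttagATTGCCAAGG
Med12 exon 2, chrX:101274876-101274905, plus strand: atgctgtttttctgcctcagGATGAACTGA
Med12 exon 3, chrX:101275152-101275181, plus strand: gtctacttttccccctttagATCAGTTCCA
Med13l exon 2, chr5:118593313-118593342, plus strand: aattttttgtcgttttccagGCTGAACTCA
Every window shown ends its intron in ag, as did 99.8% of the 434 annotated acceptors of the 33 genes. Fusion at exon 2 would keep nearly the whole coding sequence of Med26 (95.9% of 1764 bases), Med25 (94.4% of 2403), Med14 (94.7% of 4377), Med12 (98.5% of 6570) and Med13l (98.9% of 6648). Med15 differs. Both of its acceptors shown lie before the start codon of the transcripts that use them, exon 2 being noncoding and exon 3 holding the start codon. These exons occur in 2 and 1 of its 8 annotated protein-coding transcripts, and not in the principal transcript.

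In the activator screen, 5 Mediator genes were hits: Med26 of the middle module, Med25 and Med15 of the tail, the scaffold Med14 and Med12 of the kinase module. They were 5 of the 33 members, where 132 of all 20409 genes were hits. Only 7 members had the 3 sorted insertions needed for the test, a minimum that favours genes high in sorted cells. Of the 2842 genes that reached it, 4.64% were hits. No head gene was a hit. Of the other members, 16 had only 1 or 2 sorted insertions and 10 had none, so that 26 of the 33 could not be tested for enrichment at this depth. Both sorted libraries exceeded all 6 unsorted ones at 6 members, the 5 hits and Med18, against 2.92% of the 18268 genes with insertions. The 5 hits were called on these same libraries, so their part of this count is no separate support. The share also depends on depth, with a median of 35 background insertions for the members against 15 over all genes.

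Med26 joins the core of Mediator that lacks the kinase module and is known for recruiting elongation factors. It was tagged 83 and 158 times in the activator sorted libraries, 47.7 and 107 per 10000. The 6 unsorted libraries lay between 0.128 and 1.59 per 10000, with a median of 0.601 and a mean of 0.680 ± 0.509 (SD, n = 6). Both sorted libraries were far above every unsorted library. The log2 odds ratio was 6.73 ± 0.19 (SE) with an adjusted p of 2.11e-292, the highest ratio among the members, and edgeR gave a log2 fold change of 6.18 with an adjusted p of 3.87e-09.

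Med25, the tail subunit known as the target of the viral activator VP16, was tagged 9 and 68 times, 5.17 and 46.2 per 10000. In the unsorted libraries it lay between 0 and 1.01 per 10000, with a median of 0.200. As a ratio, the sorted libraries differed more from each other than at any other hit, but the lower one was still above all unsorted libraries. Its log2 odds ratio was 6.05 ± 0.29 (SE, adjusted p 6.18e-86 by Fisher's exact test), and edgeR gave an adjusted p of 1.25e-09.

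Med15, a tail subunit that binds the activation domains of several transcription factors, was tagged 25 and 34 times, 14.4 and 23.1 per 10000. Unsorted libraries held 0.370 to 1.69 per 10000, with a median of 0.958. The groups did not overlap, and the log2 odds ratio was 4.07 ± 0.23 (SE, adjusted p 2.73e-43 by Fisher's exact test; 3.43e-10 by edgeR).

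Med14, the scaffold, was tagged 20 and 36 times, 11.5 and 24.5 per 10000, against 2.22 to 3.34 in the unsorted libraries, with a median of 2.61. Its background is high, so that 8.73 sorted insertions were expected from the background share and 56 were seen. The log2 odds ratio was 2.68 ± 0.21 (SE, adjusted p 2.44e-23 by Fisher's exact test), the lowest of the 5 hits, and the edgeR adjusted p was 2.97e-07.

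Med12, the kinase module subunit that activates Cdk8, rested on the fewest insertions, 2 and 8, or 1.15 and 5.44 per 10000. The unsorted libraries lay between 0.185 and 0.452 per 10000, with a median of 0.307. Its log2 odds ratio was 3.19 ± 0.52 (SE, adjusted p 2.10e-05 by Fisher's exact test), and edgeR gave an adjusted p of 0.0213. Sorted replicate 2 decided this call. Without it the log2 odds ratio was 1.75, with too few insertions left to test. The other 4 hits passed the Fisher test in each sorted replicate alone.

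**Figure D1:**
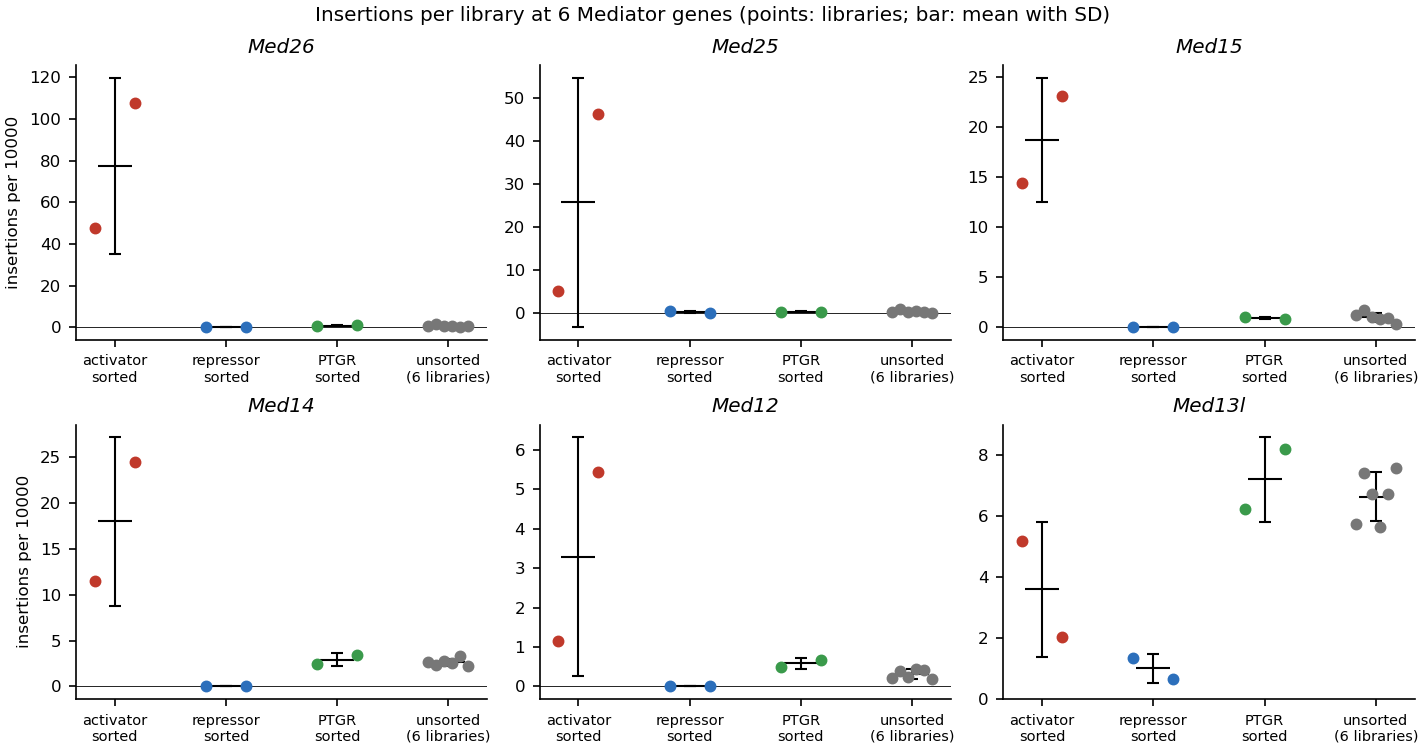
Insertions per 10000 at Med26, Med25, Med15, Med14, Med12 and Med13l (vertical axes, linear, a range of their own in each panel) in the activator, repressor and PTGR sorted libraries (2 each) and the 6 unsorted libraries. Points are libraries and bars are means with SD. The 2 activator sorted libraries lie above all unsorted libraries at the first 5 genes, and the repressor sorted libraries lie below all unsorted libraries at all genes shown but Med25.

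By edgeR, 5 members rose in activator sorted cells and none fell, against 1.45% and 0.0125% of 8000 genes. They were the 5 hits. With the replicate number as a block Med12 was not called (adjusted p 0.0884), and 1.25% of all genes rose. Leaving out activator unsorted replicate 1 left no edgeR call among the members, and leaving out unsorted replicate 2 left Med15 and Med25, whereas the Fisher test called all 5 without either library. Insertions on the opposite strand, which cannot make the fusion, were counted as well. At the 5 hits the sorted libraries held 443 sense and 7 reversed insertions, 98.4% sense. The background held 535 and 432, or 55.3% sense. These 5 genes were called because their sense insertions were high in the same sorted libraries. A higher sense share there was thus set by the choice and is no separate support. With the strand reversed, only 5 members in the activator screen, 2 in the repressor and 20 in the PTGR screen had the 3 sorted insertions needed for the test, and none of these was a hit, against 3.14%, 5.61% and 0.5% of all genes tested. The 5 activator hits were not among those tested in that screen, with 0 to 2 reversed insertions each.

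The 2 remaining members tested were not hits. Med18, a head subunit, had 2 and 3 sorted insertions, 1.15 and 2.04 per 10000 against at most 0.516 in the unsorted libraries. Its log2 odds ratio of 2.07 ± 0.69 (SE) had an adjusted p of 0.152 by Fisher's exact test. Med13l had 9 and 3 sorted insertions, 5.17 and 2.04 per 10000, both below the lowest unsorted library (5.65). Its log2 odds ratio was -0.81 ± 0.42 (SE), and the test for fewer insertions gave an adjusted p of 0.226. For this test 8 members had enough background, with at least 3 sorted insertions expected, and none was called, as for none of the 3119 genes tested at an adjusted p below 0.001 or 0.05. Beside Med13l, Med14 and Med15 these were Med1, Med21, Med27, Cdk19 and Ccnc, with 2, 1, 2, 1 and 2 sorted insertions where 4.37, 3.11, 4.55, 4.84 and 4.24 were expected. Unadjusted p-values of the exact test were below 0.05 for Med13l (0.0257) and Cdk19 (0.0486). No share of all genes is given for this unadjusted cut. Over all 3119 genes tested for fewer insertions the median log2 odds ratio was -0.73, near that of Med13l, so counts under the expected ones were common. Both sorted libraries lay below all 6 unsorted ones at 8 members, against 21.6% of all genes. A gene absent from an unsorted library cannot lie below it, so this share depends on background depth. The members had a median of 35 background insertions against 15 over all genes, so the 2 shares are not alike.

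**Figure D2:**
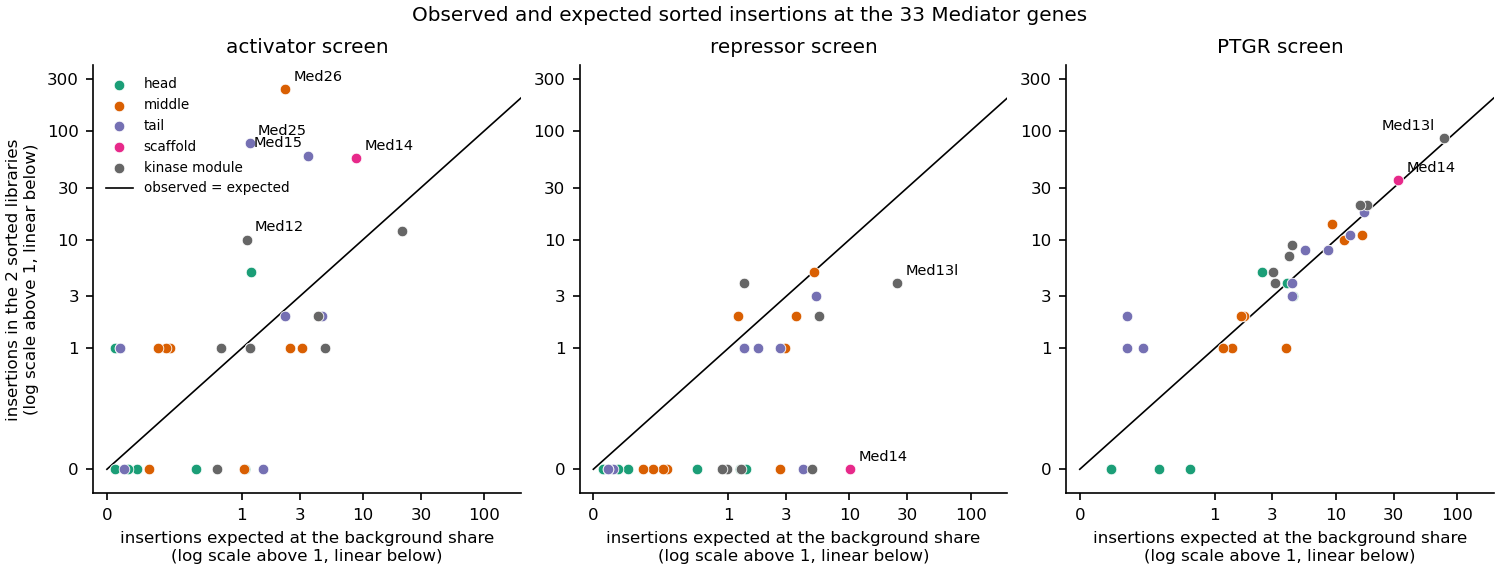
Number of insertions in the 2 sorted libraries of each screen (vertical axis) against the number expected at the background share (horizontal axis) for each of the 33 Mediator genes, coloured by module; both axes are logarithmic above 1 and linear below, and the line marks equal values. The 5 activator hits stand far above the line, Med14 and Med13l fall below it among repressor insertions, and the members follow it among PTGR insertions.

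Counted by module, the middle genes took 79.8 ± 42.9 insertions per 10000 in activator sorted cells (SD, n = 2) against 4.72 ± 0.75 in unsorted cells (n = 6). Med26 accounted for 241 of the 248. The tail took 46.5 ± 33.3 against 4.52 ± 0.45, of which Med25 and Med15 made 136 of 143. The scaffold took 18.0 ± 9.18 against 2.64 ± 0.40. The head took 1.93 ± 1.11 against 1.14 ± 0.35, with 1 sorted library inside the range of the unsorted ones. The kinase module took 8.44 ± 0.56 against 10.7 ± 0.9, so that both sorted libraries lay below the unsorted range of 9.58 to 11.6 although it contains a hit. The 28 members that were not hits took 11.4 ± 2.62 against 18.7 ± 1.89, also below the unsorted range. These 28 were chosen by leaving out members high in the same sorted libraries, so part of their lower level was set by the choice. The fold of pooled shares was 0.629 for these 28 and 0.793 for the kinase module. Beside these lower levels, the 132 hits of the whole screen took 34.2% of all activator sorted insertions. Leaving those hits out of the totals would raise every other log2 odds ratio by 0.59. Over the 3119 genes with at least 3 expected insertions the median log2 odds ratio was -0.73. Levels below the background share were thus typical of this screen and not particular to these members.

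**Figure D3:**
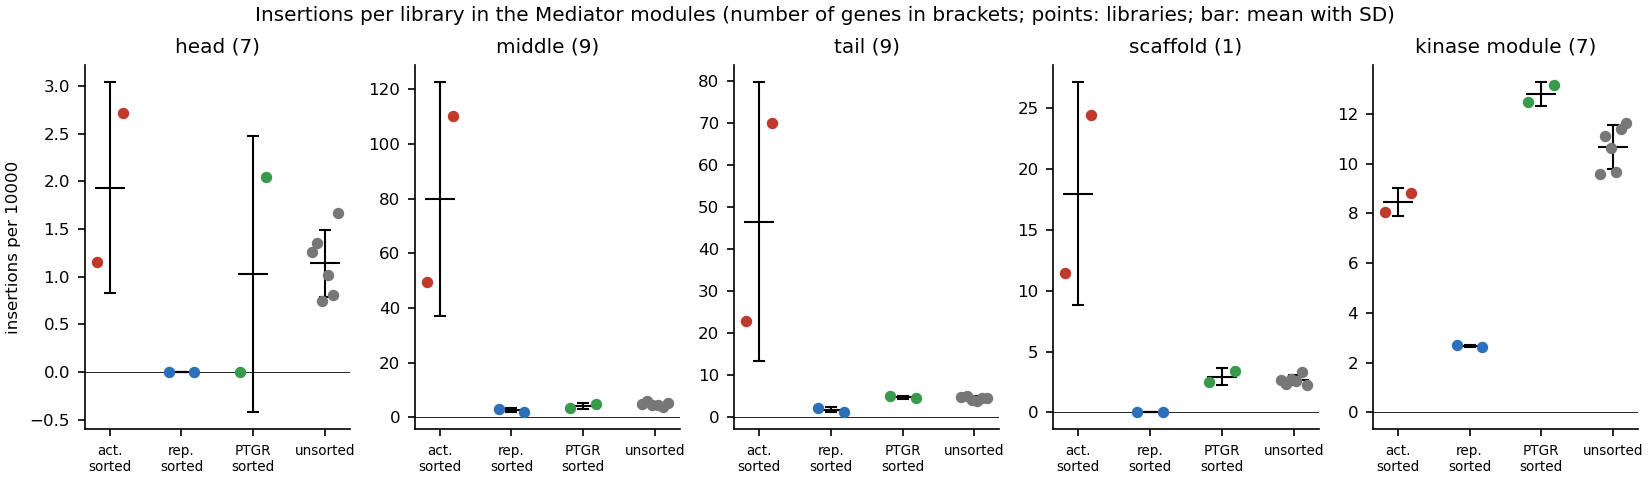
Insertions per 10000 summed over the genes of each Mediator module (linear axes, a range of their own in each panel) in the 2 sorted libraries of each screen and the 6 unsorted libraries; points are libraries and bars are means with SD. In activator sorted libraries the middle, tail and scaffold stand above the unsorted libraries and the kinase module below them.

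The positions of the sorted insertions differed between the hits. At Med26 (chr8:72494561-72548270, minus strand) all 241 sorted and all 73 background insertions were assigned to exon 2. This exon lies behind a long first intron, and fusion to it would keep 95.9% of the coding sequence. Of the sorted ones, 66.0% lay in the intron and 33.6% upstream of the gene, against 63.0% and 37.0% of the background. The median distance to the exon was 24123 bp in both. By place, then, Med26 insertions were much alike in sorted and unsorted cells and differed in number.

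Med25 (chr7:44876765-44892712, minus strand) was tagged from outside the gene. Of its 77 sorted insertions, 72 lay upstream, 93.5% against 83.8% in the background, and 10 of the 77 lay inside Fuz, the neighbouring gene. Over all 77 the median distance to the exon was 1798 bp, against 2913 bp in the background. Exon 2 received 74. The remaining 3 were assigned to exons 6 and 7, which would leave 78.2% or 71.4% of the coding sequence.

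Med15 (chr16:17651208-17732891, minus strand) was tagged mostly from within. In sorted cells 53 of 59 insertions (89.8%) lay inside the gene, 23 of 25 in replicate 1 and 30 of 34 in replicate 2, while in the background 68 of 112 (60.7%) lay upstream. Taken apart, insertions inside the gene had a log2 ratio of shares of 5.26 ± 0.29 (SE), and upstream insertions, 2 and 4 in the sorted libraries, 1.49 ± 0.61. Of the sorted insertions, 31 were assigned to exon 2 and 22 to exon 3 (52.5% and 37.3%), against 87.5% and 9.82% in the background. Both exons are absent from the principal transcript. Which exon the fusion transcripts used cannot be told from positions, here or at the other members.

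Med14 (chrX:12675369-12762073, minus strand) was tagged from far away, with 85.7% of 56 sorted insertions upstream and a median distance of 121948 bp from the exon (102846 bp in the background). No other annotated protein-coding gene lay at any of these positions. The 8 insertions inside the gene, 3 and 5 in the sorted libraries, compared with 6 in the background, a log2 ratio of shares of 5.41 ± 0.78 (SE), and the upstream ones with 272, a ratio of 2.49 ± 0.23. When only insertions within 50 kb were counted, the log2 odds ratio of Med14 was 3.99.

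Med12 (chrX:101274030-101297465, plus strand) was tagged wholly from within. All 10 sorted insertions lay inside the gene, within 627 bp of the assigned exon, 7 assigned to exon 2 and 3 to exon 3. In the background 29 of 35 (82.9%) lay upstream, 24 of these 35 inside the neighbouring genes Foxo4, Il2rg, Gm614 and Gm20489, and none of the sorted ones did. These comparisons of position are counts and were not tested. Each hit was found by the test over all insertions, and the part that the neighbouring sequence played in where insertions were kept was not tested.

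**Figure D4:**
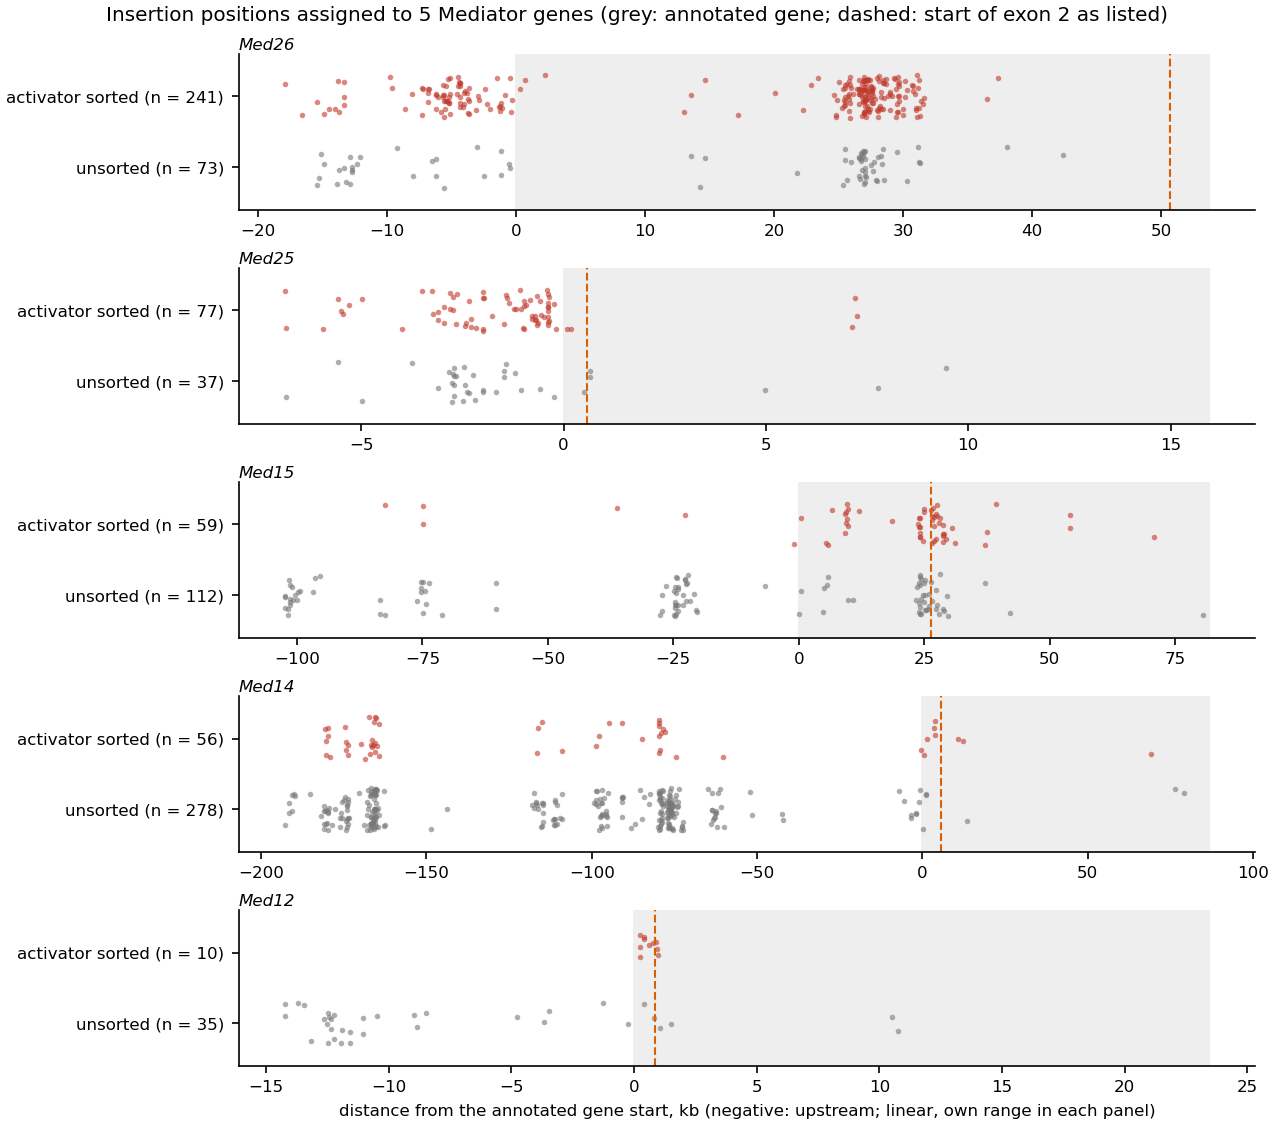
Position of each insertion assigned to Med26, Med25, Med15, Med14 and Med12, as distance from the annotated start of the gene in kb (horizontal axes, linear, negative values upstream), in activator sorted and in unsorted libraries; points are spread vertically for sight only, grey marks the gene and the dashed line the start of exon 2. Sorted insertions follow the unsorted ones at Med26, whereas at Med15 and Med12 they lie mostly or wholly inside the gene.

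Few positions at the hits recurred between the sorted libraries. Of 238 distinct sorted positions at Med26, 3 were seen in both sorted libraries, of 76 at Med25 1 was, and at Med15, Med14 and Med12 none was. Within a library, neighbouring positions may stem from the same event. Over the 5 hits, 40 of the 304 positions of sorted replicate 2 were also listed in activator unsorted replicate 2, while sorted replicate 1 shared 2 of its 139 with unsorted replicate 1. Merging positions within 10 bp lowered the Med26 counts to 70 and 125 and those of Med25 to 9 and 46. All 5 genes were still hits after merging, and also when every sorted position found in an unsorted library was left out.

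In the repressor screen no member was a hit. Med1, Med12l, Med27 and Med13l alone had the 3 sorted insertions needed for the test, and 8.18% of all 2346 genes tested were hits. None of the 4 had an unadjusted p below 0.05 in the exact test. Log2 odds ratios of these 4 ran from -2.62 to 1.56. The highest was that of Med12l, a close relative of Med12, with 2 and 2 sorted insertions (1.56 ± 0.76, SE, adjusted p 0.364 by Fisher's exact test). All members together took 18 and 9 insertions, 7.00 ± 1.53 per 10000 (SD, n = 2) against 23.7 ± 1.66 in unsorted cells (n = 6), and 21 of the 33 took none. Both sorted libraries were below all unsorted ones at 16 members, against 29% of all genes. As in the activator screen, this share rises with background depth, in which the members exceed all genes.

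Med13l fell in the repressor screen, with 3 and 1 sorted insertions where 24.6 were expected, and the test for fewer insertions called it (log2 odds ratio -2.62 ± 0.72, SE, adjusted p 0.000187 by Fisher's exact test). It was the only member among the 8 tested that passed, where 0.983% of all 3562 genes did. Med14 had 0 insertions among 37470, which allows a level of up to 0.801 per 10000, against 2.72 in the pooled background. Its adjusted p of 0.00262 missed the threshold of 0.001. Ccnc, also at 0, had an adjusted p of 0.0452, and 18.1% of all genes tested reached 0.05. By edgeR, Med14 (adjusted p 0.0118) and Med13l (0.0123) fell and no member rose, against 1.16% and 2.58% of 7688 genes. Both also fell with the replicate number as a block, where the shares were 0.741% and 2.32%. Neither was called by edgeR in any fit that left out a library. Over all genes with at least 3 expected insertions the median log2 odds ratio was -1.38 in this screen, where the 192 hits took 54.8% of the sorted insertions. With those hits left out of the totals Med13l had a log2 odds ratio of -1.52, and no member passed the test for fewer insertions.

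In the PTGR screen, which had the deepest sorted libraries, 21 members could be tested and none was a hit, against 0.666% of 9303 genes. Their median log2 odds ratio was 0.11, against 0.14 for all genes tested, and the values ran from -0.57 (Med18) to 1.06 (Med12l). For Med12l, 5 and 4 sorted insertions gave 1.06 ± 0.54 (SE, adjusted p 0.450 by Fisher's exact test), and its unadjusted p of 0.0467 was the only one of the 21 below 0.05 in the exact test. No member was called by edgeR, none had an unadjusted edgeR p below 0.05, while 0.33% of 8491 genes rose and 0% fell. With the replicate number as a block, which called no member either, 0.495% rose and 0.0824% fell. The test for fewer insertions called none of 21 (0.139% of all genes).

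The members with many PTGR insertions lay close to the background share. Med13l had 38 and 48, or 7.21 ± 1.39 per 10000 (SD, n = 2) against 6.64 ± 0.81 in unsorted cells (n = 6), a log2 odds ratio of 0.13 ± 0.17 (SE). Med14 had 15 and 20, with 2.94 ± 0.68 per 10000 against 2.64 ± 0.40. The kinases' partner Ccnc had 15 and 6 insertions, with 1.74 ± 1.01 per 10000 against 1.36 ± 0.36, and the kinase Cdk19 had 10 and 11, with 1.76 ± 0.17 against 1.39 ± 0.48. Of the tail, Med27 had 8 and 10 insertions and a log2 odds ratio of 0.09 ± 0.36, and Med15 had 6 and 5 and -0.25 ± 0.46. Of the middle genes, Med9 had 4 and 10 (0.58 ± 0.42), Med1 had 5 and 6 (-0.56 ± 0.45) and Med21 had 5 and 5 (-0.21 ± 0.48). In the 6 unsorted libraries Med27 lay between 1.06 and 2.22 per 10000, Med9 between 0.470 and 1.25, Med1 between 1.03 and 2.22 and Med21 between 0.622 and 1.29. Both PTGR sorted libraries lay inside this range at Med27 and Med21 and below it at Med1 (0.820 and 1.02), and at Med9 1 lay inside and 1 above. The 7 kinase module genes had log2 odds ratios from 0.13 to 1.06, 6 of them above the median of all genes tested, with none called. Against the unsorted libraries of the PTGR screen alone they ran from -0.04 (Ccnc) to 1.12. The module took 12.8 ± 0.5 per 10000, above the unsorted range of 9.58 to 11.6 in both libraries, a fold of 1.21.

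The 5 activator hits as a group took 443 insertions in activator sorted cells, 1 in repressor sorted cells and 64 in PTGR sorted cells. As shares these were 143 ± 89.7, 0.225 ± 0.318 and 5.37 ± 0.86 per 10000 (SD, n = 2 each), against 4.95 ± 1.22 in the unsorted libraries (n = 6). The difference between screens was tested with edgeR over all 12 libraries. Between the activator and the repressor screen, Med26 (adjusted p 5.70e-15), Med14 (1.08e-09), Med15 (7.00e-06) and Med25 (0.0234) differed, all higher in the activator screen, where 0.57% of 12809 genes were higher and 0.882% lower. Med25 was not called with the replicate number as a block (adjusted p 0.0601), with all genes of at least 1 insertion in the fit (0.0516), or without activator sorted replicate 2 (0.990), repressor sorted replicate 1 (0.0568) or repressor sorted replicate 2 (0.252). Between the activator and the PTGR screen, Med14 (adjusted p 2.41e-05), Med15 (0.000359) and Med26 (0.0360) differed, with log2 differences of 2.59, 3.19 and 4.06, where 0.586% of genes were higher and 0.125% lower. Without activator sorted replicate 2, Med15 alone was called in this pair, and without PTGR sorted replicate 1 Med26 was not. Med12 was not called to differ in any pair (adjusted p 0.182 and 0.586 for the activator screen against the repressor and PTGR screens). Between the repressor and the PTGR screen, Med13l (adjusted p 0.0263, log2 difference -2.54) and Med14 (0.0302) were lower in the repressor screen, as were 0.453% of genes, while 0.929% were higher. Neither Med13l nor Med14 was called in this pair without repressor sorted replicate 1, repressor sorted replicate 2 or PTGR sorted replicate 2. The activator and repressor screens differ in reporter as well as sort, and the PTGR screen differs from both in tag, reporter and sort, and these cannot be told apart.

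Mediator's partners at the promoter were counted in the same way. Of 30 genes for RNA polymerase II subunits and general transcription factors, all were in the tables and none was a hit in any screen, with 5 tested among activator, 6 among repressor and 13 among PTGR insertions. Their tested members had median log2 odds ratios of -0.19, -0.61 and -0.28. Of 15 pause release and elongation genes, 14 were in the tables. In the activator screen 4 of these 14 were hits, all parts of the super elongation complex. Other listed parts of that complex, Cdk9, Ccnt1, Ccnt2, Ell, Ell2 and Ell3, were not hits. The test covered 6 of the 14, since its minimum of 3 sorted insertions favours genes high in sorted cells. Among all 2842 genes tested, 4.64% were hits. The 4 hits of the list were Mllt3 (36 and 43 insertions, log2 odds ratio 6.05 ± 0.28, SE), Mllt1 (6 and 3, 4.58 ± 0.64), Aff1 (34 and 47, 2.74 ± 0.18) and Aff4 (7 and 16, 2.18 ± 0.32). None of the 10 elongation genes tested was a hit in the PTGR screen.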

How the data were processed

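Insertion sites were mapped by inverse PCR in 12 libraries. Per the labels and the study's methods, the authors trimmed reads (Trim Galore 0.6.0), aligned them to mm10, removed duplicates (SAMtools 1.9) and assigned each insertion to an exon. The deposited insertion lists give positions and distances in bp, with another list for the reversed strand. The counts of the 3 deposited gene tables, summed by the authors, named the genes here; their columns of odds ratios and adjusted p-values were not used. Unique positions at most 200 kb from the exon were counted per gene (Python 3.11.15, pandas 2.3.3). In the repressor unsorted libraries 100% of positions were listed repeatedly, and 12.7% in PTGR sorted replicate 2. Fisher's exact tests (scipy 1.17.1) were adjusted by Benjamini-Hochberg over all genes with at least 3 sorted insertions, or 3 expected ones for the test for fewer insertions. edgeR 4.0.16 (TMM) used genes with at least 10 insertions and was tested on simulated data. DESeq2 1.42.0, other backgrounds, filters, distances and single libraries were alternatives. Gene positions are from GENCODE vM21, which held the assigned exon of 100% of the 5767 member insertions. Limits for a count of 0 allow 3 counts, and intervals cover counting error only. The members, modules and other lists were chosen with earlier results of these data known. All 33 members are named by rule, and those that were hits or had at least 10 sorted insertions are given with both sorted counts and a summary of the 6 unsorted libraries. Repressor values for the pause release and elongation list are not reported here.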

Additional observations from a re-analysis of the deposited data

Results flagged for a closer look

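Among the 12 members described by library, 1 had an unsorted library that stood apart from the other 5. For normally distributed values chance gives this at about 1 in 20 of the members tried, so 1 among 12 is not unusual. These values are small counts, for which that rate is only a guide. The library was activator unsorted replicate 2 at Med25, with 1.01 insertions per 10000 where the other 5 libraries lay between 0 and 0.339. Of its 21 positions at Med25, 13 were also listed in activator sorted replicate 2.

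The change from unsorted to sorted cells differed between screens at 9 points, by edgeR with adjusted p-values over 12809 genes. Activator minus repressor, the fitted log2 differences were 11.9 for Med26, 10.3 for Med14, 9.49 for Med15 and 4.72 for Med25. The first 3 had 0 insertions in both repressor sorted libraries, so that these fitted values depend on the prior count and are no measure of size. Activator minus PTGR, they were 4.06 for Med26, 3.19 for Med15 and 2.59 for Med14. Repressor minus PTGR, they were -2.54 for Med13l and -7.67 for Med14, the latter again with 0 repressor sorted insertions.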

How the results depend on the processing

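The 24 alternatives per screen were variants of the Fisher test and fits of edgeR and DESeq2 on all 4 libraries of the screen. In all of them 4 members were called in the activator screen (Med26, Med25, Med15, Med14). The number of members called was 4 or 5 there and 0 in both other screens. No log2 odds ratio or fold change of a called member changed sign. The edgeR fits that left out a library are not among the 24 and are given below. Med12 lost its call without activator sorted replicate 2 (log2 odds ratio 1.75), with sorted replicate 1 alone against its own unsorted library (2.33), and in edgeR with a replicate block (adjusted p 0.0884). The block with the replicate number left 4 activator calls, 0 PTGR calls and 0 calls of higher insertion in the repressor screen, and kept Med14 (adjusted p 0.0265) and Med13l (0.0208) as lower there. Between screens it left 3 members for activator against repressor, without Med25 (adjusted p 0.0601), and changed no other call. Deviations of same-numbered libraries correlated at 0.046, 0.00084 and 0.19 across genes in the activator, repressor and PTGR screens, and the labels do not pair them, so the main test has no block. Shared positions bear on this too: at the 5 hits, activator sorted replicate 2 shared 40 of 304 positions with unsorted replicate 2 and at most 1 with any other unsorted library, and sorted replicate 1 shared 2 of 139 with each of unsorted replicates 1 and 2. By the study's methods, the background cells were set aside from the selected pool before the remaining cells were sorted. Sorted and unsorted libraries of the same transduction would then be paired, although the labels do not state which belong together. The fits with the replicate number as a block are those that allow for this.

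Leaving out each library in turn gave 0 to 5 members by edgeR in the activator screen and 0 in each case in the repressor screen, where edgeR without a filter on low counts also gave 0. It gave 1 to 4 members for activator against PTGR and 0 to 2 for repressor against PTGR. Hits over all genes were 74 in the repressor screen by edgeR without a filter on low counts (198 with the filter, 192 in the Fisher test). In the PTGR screen they were 62 in the Fisher test, 40 with the background of the same screen, 28 by edgeR, 29 by DESeq2, 30 with library sizes alone, 34 without the filter and 121 at an adjusted p below 0.05. The test for fewer insertions called 0 members in the repressor screen with hits left out of the totals, an alternative chosen after seeing the data, as were the single replicates against their own unsorted library. With Med27 to Med30 counted in the head, that module took 3.37, 1.00 and 3.12 insertions per 10000 in the activator, repressor and PTGR sorted cells, and the tail 0.778 in repressor and 2.59 in PTGR sorted cells. The causes were not tested. Depth limits the activator and repressor screens most, where 26 and 29 of the 33 members had under 3 sorted insertions.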
